A study of Homo sapiens with 5 samples.

Results

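The genes described here build and pull apart the mitotic spindle and its chromosomes. They were taken by gene symbol from a table of translation efficiency in HL-60 cells: all CEP, CENP, KIF, TUBGCP, HAUS, NCAP, PDS5 and ANAPC genes, the SMC proteins numbered from SMC1 to SMC6, the cohesin subunits STAG1 and STAG2, and single kinetochore, checkpoint, kinase and anaphase-promoting complex genes. This rule used no measured value. It found 110 of 6309 genes: 36 centrosomal, 28 of the kinetochore and spindle checkpoint, 17 kinesins, 16 of the SMC complexes and 13 of the anaphase-promoting complex. RefSeq lists 171 protein-coding symbols that fit the same rule, so the table holds part of the family; BUB1B, SPC24, SPC25, KIF15, KIFC1 and CDC26 were not analysed here.

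HL-60 is a long-established line grown from a promyelocytic leukaemia, and the labels call it wild type. One group received decitabine, a cytidine analogue that enters DNA and traps DNA methyltransferases, in doses of 100 nM given at the start, at 24 hours and at 48 hours, and the control group received DMSO. Both were lysed at 72 hours. The labels list 2 total RNA libraries for each treatment and, as 1 pool over the samples, a library of the mRNA stretches that ribosomes cover. The title of that pool names no treatment. How its reads were divided between treatments, and over how many replicates, is not shown here. All 11 myeloid marker genes looked for, such as MPO and ELANE, were in the table and none of 8 markers of erythroid and lymphoid cells was, although the table gives no levels.

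Each gene has 1 coefficient in the authors' deposited table, the change in translation efficiency (mRNA fragments under ribosomes relative to total mRNA) with decitabine against DMSO. It was read as a natural log, from the way the column is named, with the base not stated. The ± value beside a coefficient is an implied standard error, which is the coefficient divided by the z of its p-value, and intervals are 95% intervals made from it. No value per library could be shown, the depth is unknown, and nothing says whether replicates came from separate cultures, so the p-values may measure technical spread only. A higher efficiency with more footprints and one with less mRNA cannot be told apart here. In a bulk lysate, a different share of cells in mitosis and a different efficiency per cell cannot be told apart either.

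Centrosomes organise microtubules, and each holds a pair of centrioles that duplicate once per cell cycle, driven by the kinase PLK4. Kinetochores assemble on centromeric chromatin and attach chromosomes to microtubules, while the spindle checkpoint holds back the anaphase-promoting complex, a ubiquitin ligase, until every chromosome is attached. Kinesins are motors that walk along or dismantle microtubules. SMC proteins form ring-shaped ATPases: cohesin holds sister chromatids together and folds loops, condensin compacts mitotic chromosomes, and SMC5/6 acts in DNA repair. Transcription of many of these genes peaks late in the cell cycle through a promoter element known as the CHR, often next to CCAAT boxes.

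That promoter element was looked for first, because it is known from many genes of this kind and the rule did not use it. RefSeq promoters (GRCh38.p14) were available for 97 of the 110 members, and the 200 bases upstream of each gene start were searched on both strands for the CHR as TTTGAA or TTCGAA and for CCAAT, which can share an end letter. A CHR match was present in 21 members (21.6%), against 7.39% of 5145 promoters of genes in the table and 11.3% of all 27305 promoters of that length. CCAAT was present in 45.4% of members, 33.0% of the table's genes and 28.9% of all promoters. Both stood together in 16 members (16.5%), against 3.17% and 3.59%, and 6 of the 14 kinesin promoters (42.9%) held both. The E2F-type letters TTTCCCGC or TTTGGCGC were in 4 members (4.12%), against 3.19% of the table's genes and 1.63% of all promoters. These shares are descriptions, and a match of letters is not a binding site. The 6 stretches below are examples from the 16 members that hold both matches. In KIF11, KIF18A, KIF22 and PLK1 the CCAAT box lies upstream of the CHR match. In the centrosomal CEP192 and in KIF5B, a cargo motor outside mitosis, the order is the reverse. NCAPD2 and ASPM, not printed, have CCAAT boxes on both sides of the CHR match. Capitals mark the matches and each stretch ends upstream of the gene start.
KIF11: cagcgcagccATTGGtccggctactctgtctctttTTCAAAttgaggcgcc
KIF18A: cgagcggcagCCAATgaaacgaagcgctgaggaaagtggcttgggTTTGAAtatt
KIF22: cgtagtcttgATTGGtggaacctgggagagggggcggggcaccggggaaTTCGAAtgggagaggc
PLK1: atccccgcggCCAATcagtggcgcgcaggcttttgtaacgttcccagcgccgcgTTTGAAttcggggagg
CEP192: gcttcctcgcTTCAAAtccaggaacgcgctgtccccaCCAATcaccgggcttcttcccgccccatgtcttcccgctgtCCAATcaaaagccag
KIF5B: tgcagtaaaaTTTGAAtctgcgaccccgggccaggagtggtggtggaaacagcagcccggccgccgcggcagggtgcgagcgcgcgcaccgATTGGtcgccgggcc

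On hg38 coordinates the KIF11 stretch is chr10:92593067-92593117 on the plus strand, that of KIF22 chr16:29790675-29790739 (plus), that of PLK1 chr16:23678806-23678875 (plus) and that of CEP192 chr18:12991158-12991250 (plus). The KIF18A stretch is chr11:28108157-28108211 and that of KIF5B chr10:32056470-32056575, both on the minus strand. The coefficients of these genes lay on both sides of 0. The authors' deposited table has 0.26 for PLK1 and 0.32 for CEP192, 0.22 for KIF22, 0.16 for KIF18A and 0.08 for KIF11, and -0.07 for KIF5B. The 21 members with a CHR match had a median of 0.11, with a range from -0.12 to 0.73 in the authors' deposited table, and the 76 without one had a median of 0.14.

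None of the 110 members changed in translation efficiency at an adjusted p below 0.05 by the authors' deposited table, where 0.808% of all genes passed, with 0.634% higher. At an adjusted p below 0.1 SMC1A was the only member, against 1.36% of all genes. The first member by p-value was the cohesin ring subunit SMC1A, followed by the cohesin subunit STAG2 and by ANAPC5, a scaffold subunit of the anaphase-promoting complex. Without adjustment, 11 members had a p below 0.05 with a positive coefficient, against 8.35% of all genes called higher in that way, and 0 had one with a negative coefficient, against 1.95%. A share of 10% of the members is near the 10.3% of all genes called in either direction. Before centring, the 11 were SMC1A, STAG1, STAG2, NCAPG, ANAPC5, CEP152, CEP120, CEP192, TUBGCP6, CENPF and MAD1L1.

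The median coefficient of the members was 0.13 in the authors' deposited table and that of all 6309 genes was 0.09. The difference was not tested. Of the 110, 82 were above 0 (74.5%), against 65% of all genes, and 67 were above the median of all genes (60.9%). Because the table's own centre is above 0, coefficients were also taken relative to that median: then 8 members were higher at an unadjusted p below 0.05, against 3.69% of all genes, and 2 were lower, CEP164 and CENPB, against 4.25%. No member passed the adjustment on that scale, where 0.586% of all genes did.

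By group, the medians of the authors' deposited table were 0.19 for the centrosome, 0.17 for the SMC complexes, 0.12 for the kinetochore and checkpoint, 0.11 for the anaphase-promoting complex and 0.08 for the kinesins. The kinesin median alone was below that of all genes, by 0.02, so its sign turns when zero is placed at the centre of the table. Of the SMC genes 14 of 16 were above 0, of the kinetochore genes 22 of 28, of the centrosomal genes 28 of 36, of the anaphase-promoting complex genes 8 of 13 and of the kinesins 10 of 17. The middle 50% of the groups overlapped, running from 0.08 to 0.33 for the SMC genes and from -0.07 to 0.18 for the kinesins. Genes of one group share libraries and are not replicates, so the order of these medians was not tested.

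**Figure D1:**
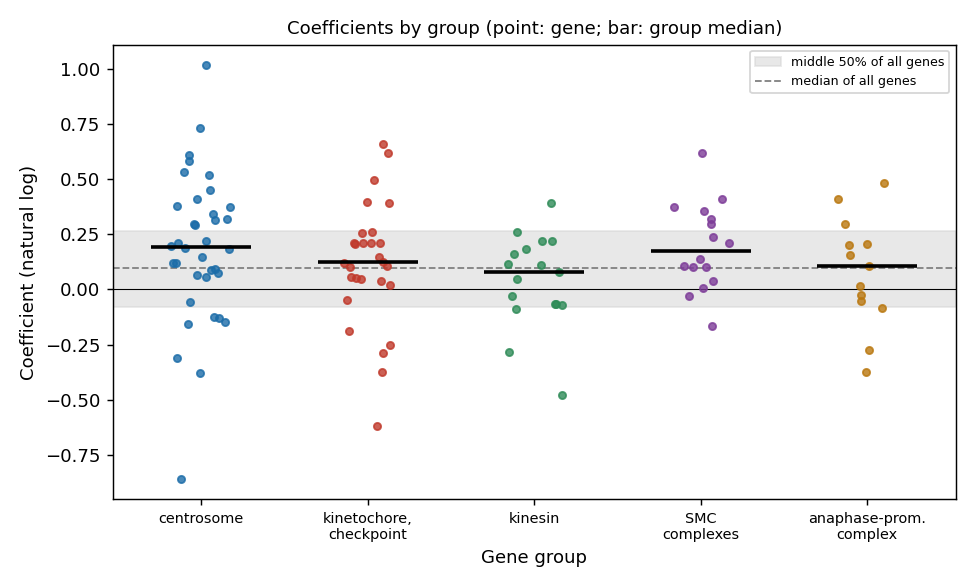
Coefficient of each member (points; y axis, natural log, decitabine against DMSO) by gene group, with the group median as a black bar, the middle 50% of all 6309 genes as a grey band and their median as a dashed line. Every group spreads across both sides of 0, and the medians run from 0.08 for the kinesins, which lies below the median of all genes, to 0.19 for the centrosome.

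The SMC genes were the best measured of the groups. Their implied standard errors had a median of 0.14, and 12 of 16 were among the most precise 25% of all genes; the centrosomal genes had a median of 0.28 and 6 of 36 among that 25%. To pass the adjustment a gene needed an absolute z of 3.55. Across the 110 members this meant a coefficient between 0.325 for CENPF and 1.71 for KIFC2, with a median of 0.828, which is 1.38-fold, 5.51-fold and 2.29-fold in the same order. A member whose measured coefficient was smaller than its own requirement could not pass. The chance of detecting a true change of a given size was not computed.

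**Figure D2:**
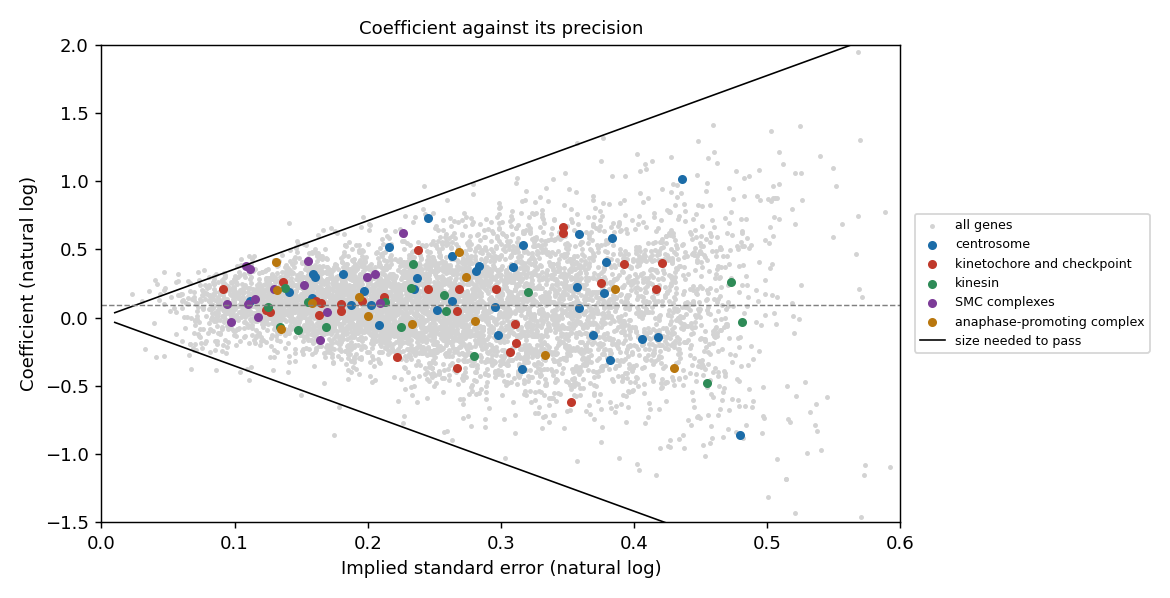
Coefficient (y axis, natural log) against implied standard error (x axis, natural log) for the 110 members, coloured by group, and all other genes in grey; black lines mark the size needed to pass an adjusted p of 0.05, the dashed line the median of all genes, and 19 genes lie outside the axes. No member lies beyond the lines; SMC1A, with 0.38 ± 0.11, is the closest to them by p-value.

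Of the 16 SMC complex genes, 4 (25%) had an unadjusted p below 0.05 with a positive coefficient, against 8.35% of all genes. Of the 6 cohesin genes in the rule, 3 were called in that way. These are counts over few genes that were not tested. Of the 6, 5 were among the most precise 25% of all genes. Among the 2718 genes at least as precise as the median member, 14.5% had an unadjusted p below 0.05 in either direction, and 334 were called higher. RAD21, another ring subunit, falls outside the rule and is described below. SMC1A, one of the ring's ATPases, had a coefficient of 0.38 ± 0.11 (interval 0.16 to 0.59) and 0.0597 as its adjusted p, per the authors' deposited table. That is 1.46 times the DMSO efficiency (1.18 to 1.80) on a natural log scale and 1.30 times if the coefficient is a log2 value. It needed 0.385 to pass and had 0.375. SMC1A was ranked 58 of all genes by p-value. The q-value of the same table was 0.0495 for SMC1A, which puts it among the 0.951% of genes below 0.05 by that measure. Relative to the median of all genes SMC1A had an adjusted p of 0.386.

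The other cohesin genes among the members spread from no measurable difference to the size of SMC1A and beyond. STAG2, the HEAT-repeat subunit that docks on the ring and is often mutated in myeloid leukaemia, had 0.35 ± 0.11 (adjusted p = 0.105) per the authors' deposited table. Its paralogue STAG1 had the highest coefficient of the SMC group, 0.62 ± 0.23 (adjusted p = 0.200), with a wide interval from 0.17 to 1.06 in the authors' deposited table. SMC3, which pairs with SMC1A in the ring, had 0.10 ± 0.11 (interval -0.12 to 0.32) in that deposited table. These ATPases of one ring lay 0.28 apart, and the interval of the difference, -0.03 to 0.58, includes 0. PDS5B and PDS5A, which regulate release of cohesin from DNA, had 0.24 ± 0.15 and 0.01 ± 0.12 in the authors' deposited table. The median of the 6 genes was 0.29, with all 6 above 0 and 5 above the median of all genes. SMC1A lies on the X chromosome from 53374149 to 53422728 and STAG2 on the X from 123960560 to 124102656, while STAG1 lies on chromosome 3 from 136336236 to 136752378, as whole-gene spans.

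Condensin genes lay near the centre of the table, with a median of 0.10. NCAPG, a HEAT-repeat subunit of condensin I, stood highest with 0.41 ± 0.15 (interval 0.11 to 0.71, adjusted p = 0.217) per the authors' deposited table. Its span on chromosome 4, from 17810979 to 17844865, overlaps that of LCORL, with the use of strand in counting not given in the sources used here. The other condensin I subunits had lower values: NCAPD2 had -0.03 ± 0.10 and NCAPH 0.04 ± 0.17 in the authors' deposited table. NCAPG2, NCAPD3 and NCAPH2 of condensin II had 0.21 ± 0.13, 0.14 ± 0.12 and 0.11 ± 0.21 in the authors' deposited table. The ATPases shared by both condensins, SMC4 and SMC2, had 0.10 ± 0.09 and -0.17 ± 0.16 in the authors' deposited table, and SMC2 was the lowest of the SMC group. SMC4 is the most precise gene of the group, and its interval, -0.08 to 0.29, overlaps that of SMC1A, 0.16 to 0.59.

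SMC5 and SMC6, partners in one complex, gave nearly the same value. SMC6 had 0.32 ± 0.21 (adjusted p = 0.617) and SMC5 0.30 ± 0.20 (adjusted p = 0.642) per the authors' deposited table. The difference between them was -0.02, but its interval, -0.58 to 0.54, is too wide to show that they move alike.

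**Figure D3:**
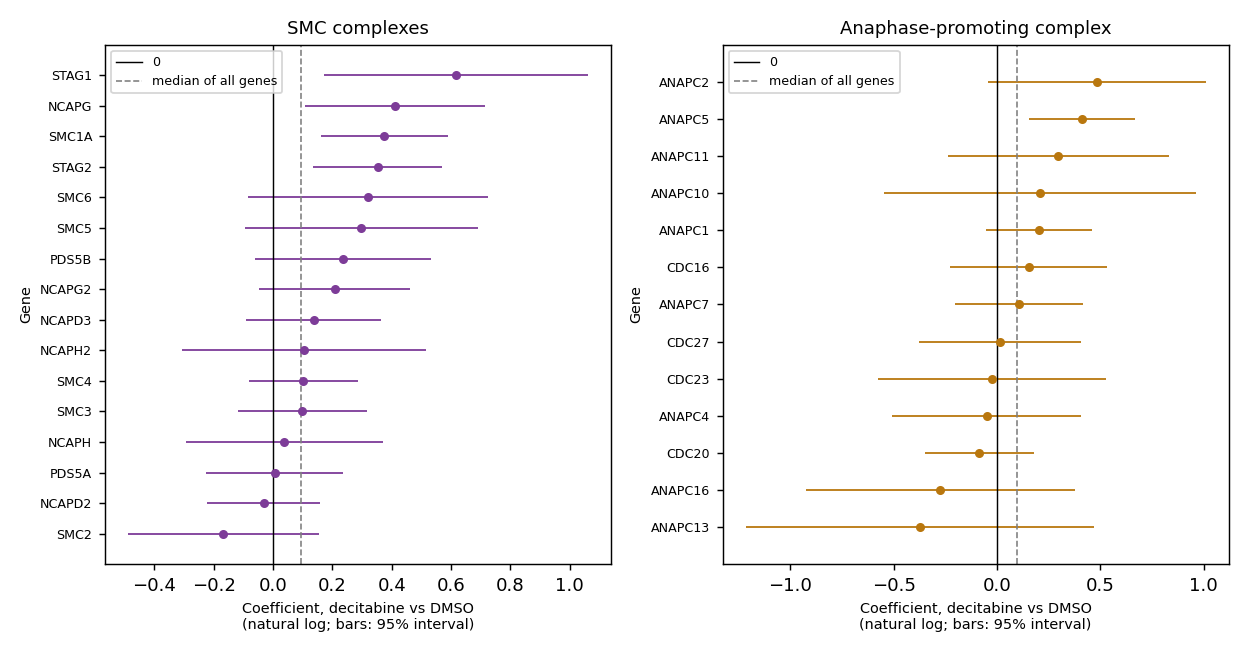
Coefficients (x axis, natural log, decitabine against DMSO) of the 16 SMC complex genes and the 13 anaphase-promoting complex genes (y axis), with 95% intervals as bars, a solid line at 0 and a dashed line at the median of all genes. The intervals of STAG1, NCAPG, SMC1A, STAG2 and ANAPC5 lie to the right of 0, and no interval lies to its left.

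The anaphase-promoting complex had 1 of 13 genes (7.69%) at an unadjusted p below 0.05, against 10.3% of all genes. ANAPC5 had 0.41 ± 0.13 (interval 0.15 to 0.67, adjusted p = 0.118), or 1.51 times DMSO, by the authors' deposited table, and lies on chromosome 12 from 121308245 to 121354209. ANAPC2, the cullin subunit, had 0.48 ± 0.27 (adjusted p = 0.547) per the authors' deposited table. ANAPC1, the largest scaffold, had 0.20 ± 0.13 in the same deposited table, and ANAPC7 had 0.11 ± 0.16. The small subunits were poorly measured, and the lowest value of the group was that of ANAPC13, -0.37 ± 0.43 in the authors' deposited table. CDC20, the coactivator that the spindle checkpoint blocks, had -0.09 ± 0.13 (interval -0.35 to 0.18) in the authors' deposited table. Among the repeat-containing arm subunits, CDC16 had 0.15 ± 0.19, CDC27 0.01 ± 0.20 and CDC23 -0.03 ± 0.28 in the authors' deposited table. CDC27 has 11 pseudogenes named after it in RefSeq and ANAPC1 has 6; both values are uncertain, with the treatment of shared reads not given in the sources used here. The remaining genes, ANAPC4, ANAPC10, ANAPC11 and ANAPC16, ranged from -0.27 to 0.30 in the authors' deposited table and each interval included 0.

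Among centrosomal genes, 4 of 36 (11.1%) had an unadjusted p below 0.05, near the 10.3% of all genes. They were CEP152, CEP120, CEP192 and TUBGCP6. CEP152, the scaffold that recruits PLK4 to the mother centriole, had 0.73 ± 0.25 (interval 0.25 to 1.21, adjusted p = 0.151), or 2.08 times DMSO (1.28 to 3.36), in the authors' deposited table. CEP192, the other recruiter of PLK4 and a scaffold for mitotic centrosomes, had 0.32 ± 0.16 (adjusted p = 0.467) per the authors' deposited table. CEP120, needed for centriole elongation, had the highest coefficient of all members, 1.02 ± 0.44 (interval 0.16 to 1.87, adjusted p = 0.365), per the authors' deposited table. PLK4 itself had 0.38 ± 0.28 (adjusted p = 0.699) per the authors' deposited table. CEP152 lies on chromosome 15 from 48729083 to 48811069. Relative to the median of all genes, CEP152 kept an unadjusted p of 0.00957 and CEP120 one of 0.0347, and CEP192 had 0.164.

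The 21 CEP genes had a median of 0.21, with 17 above 0 and 14 above the median of all genes. Of the 21, 9 were among the least precise 25% of the table. CEP164, a distal appendage protein needed for cilia, had the lowest coefficient of the members, -0.86 ± 0.48 (interval -1.80 to 0.08), in the authors' deposited table. CEP83, another distal appendage protein, had 0.61 ± 0.36 in the authors' deposited table, so the appendage genes stood near both ends of the group. The best measured CEP gene was CEP350, which anchors microtubules, with 0.15 ± 0.16 in the authors' deposited table. The remaining CEP genes, among them CEP135 of the centriole cartwheel, CEP63, CEP55 of the midbody, and the centriole linker genes CEP250 and CEP68, had intervals that included 0.

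The γ-tubulin complex, which nucleates microtubules at the centrosome, was higher in median than augmin, the complex that places it along existing spindle microtubules. All 4 TUBGCP genes were above 0, with a median of 0.42. TUBGCP6 had 0.52 ± 0.22 (adjusted p = 0.319), TUBGCP4 0.53 ± 0.32, TUBGCP3 0.32 ± 0.18 and TUBGCP2 0.09 ± 0.19 in the authors' deposited table. Of the 7 HAUS genes 3 were above 0 and their median was -0.06. They ran from -0.38 ± 0.32 for HAUS4 to 0.22 ± 0.36 for HAUS3 in the authors' deposited table, and HAUS1, the most precise, had -0.06 ± 0.21. None of the HAUS genes had an unadjusted p below 0.05, each interval included 0.09, the median of all genes, and the difference between the complexes was not tested.

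The large scaffolds of the pericentriolar material were measured more precisely than most CEP genes. PCNT, or pericentrin, had 0.30 ± 0.16 (interval -0.02 to 0.61), and CDK5RAP2, which activates the γ-tubulin complex, had 0.19 ± 0.14 in the authors' deposited table. ASPM, a spindle pole protein named for its link to microcephaly, had 0.12 ± 0.11 (interval -0.10 to 0.34) in the authors' deposited table. All were above the median of all genes and none had an unadjusted p below 0.05.

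**Figure D4:**
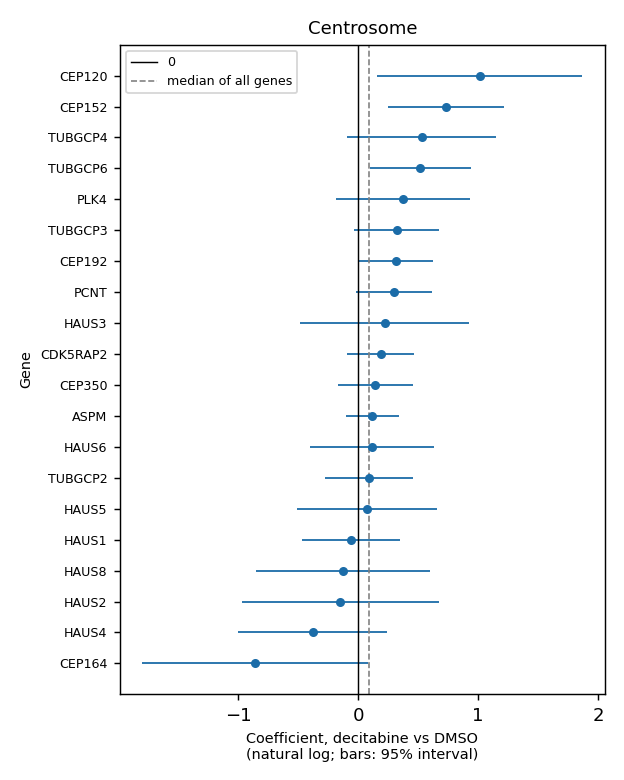
Coefficients (x axis, natural log, decitabine against DMSO) of 20 centrosomal genes (y axis; the named genes, the TUBGCP and the HAUS genes), with 95% intervals as bars, a solid line at 0 and a dashed line at the median of all genes. CEP120 (1.02) and CEP152 (0.73) stand at the top and CEP164 (-0.86) at the bottom, and the interval of CEP164 runs from -1.80 to 0.08.

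Kinetochore and checkpoint genes had 2 of 28 (7.14%) at an unadjusted p below 0.05, against 10.3% of all genes. CENPF, a large protein of the outer kinetochore and the most precise of all members, had 0.21 ± 0.09 (interval 0.03 to 0.39, adjusted p = 0.378), or 1.23 times DMSO, in the authors' deposited table. MAD1L1, which carries MAD2 to unattached kinetochores, had 0.50 ± 0.24 (adjusted p = 0.429) per the authors' deposited table. Relative to the median of all genes neither kept an unadjusted p below 0.05; the values were 0.209 for CENPF and 0.0900 for MAD1L1. CENPE, a kinetochore motor, had 0.11 ± 0.16 in the authors' deposited table.

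At the centromere itself, coefficients of opposite sign stood side by side. CENPA, the histone H3 variant that marks centromeres, had 0.62 ± 0.35 (interval -0.06 to 1.30), and CENPB, which binds a motif of centromeric repeat DNA, had -0.62 ± 0.35 (interval -1.31 to 0.07) in the authors' deposited table. Neither interval excluded 0. CENPH, of the constitutive network that rests on CENPA, had the highest value of the group, 0.66 ± 0.35 (adjusted p = 0.499), per the authors' deposited table. The 12 genes of that network had a median of 0.21 with 10 above 0, and the exceptions were CENPI with -0.25 ± 0.31 and CENPO with -0.05 ± 0.31 in the authors' deposited table. CENPU, the most precise of them, had 0.02 ± 0.16 in the authors' deposited table. CENPJ, a centriole protein that RefSeq now names CPAP, belongs with the centrosome by role and had 0.12 ± 0.20 in the authors' deposited table; moving it and leaving out MAD2L1BP shifted the group's median to 0.14.

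Of the microtubule-binding Ndc80 complex and the spindle checkpoint, NDC80, NUF2, BUB1, BUB3 and MAD2L1 ran from -0.29 to 0.12 in the authors' deposited table, while MAD1L1, described above, had 0.50. NDC80 had 0.12 ± 0.16 and its partner NUF2 -0.29 ± 0.22 in the authors' deposited table, a difference of 0.41 with an interval from -0.13 to 0.95. BUB1 and BUB3, which form a checkpoint complex at kinetochores, were among the most precise members, with 0.04 ± 0.13 and 0.06 ± 0.12 in the authors' deposited table. MAD2L1, the inhibitor of CDC20, had 0.10 ± 0.18 in the authors' deposited table, and MAD2L1BP, which removes it, had -0.19 ± 0.31. The intervals of BUB1 (-0.21 to 0.29) and BUB3 (-0.19 to 0.30) overlap that of SMC1A, 0.16 to 0.59. Their differences from SMC1A were not tested.

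Of the kinases placed with the kinetochore and checkpoint, PLK1 had 0.26 ± 0.14 (interval -0.01 to 0.53, adjusted p = 0.499), AURKA 0.05 ± 0.18, and AURKB, the catalytic subunit of the chromosomal passenger complex, -0.37 ± 0.27 (interval -0.90 to 0.15) in the authors' deposited table. The 2 aurora kinases differed by 0.42, with an interval from -0.21 to 1.05.

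**Figure D5:**
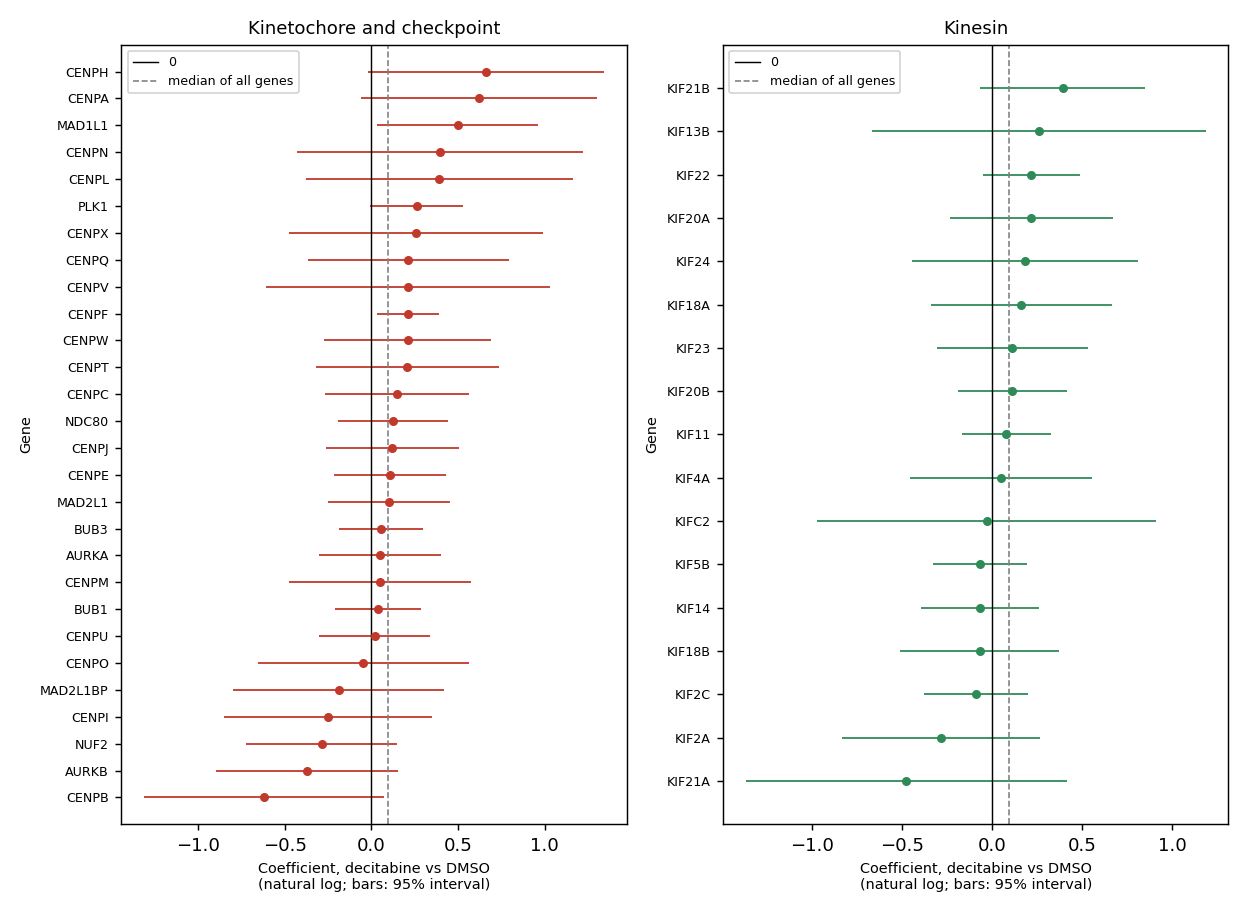
Coefficients (x axis, natural log, decitabine against DMSO) of the 28 kinetochore and checkpoint genes and the 17 kinesins (y axis), with 95% intervals as bars, a solid line at 0 and a dashed line at the median of all genes. The intervals of CENPF and MAD1L1 lie to the right of 0. Those of the other 26 kinetochore and checkpoint genes and of all 17 kinesins cross it. Of all genes, 8.35% were called higher at an unadjusted p below 0.05.

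None of the 17 kinesins had an unadjusted p below 0.05, against 10.3% of all genes. KIF11, the motor that pushes spindle poles apart and the most precise of the 17, had 0.08 ± 0.13 (interval -0.17 to 0.33) in the authors' deposited table. KIF22, which pushes chromosome arms, had 0.22 ± 0.14, and KIF20A, a motor of cytokinesis, had 0.22 ± 0.23 in the authors' deposited table. KIF2C and KIF2A, which dismantle microtubules, had -0.09 ± 0.15 and -0.28 ± 0.28 in the authors' deposited table, and both intervals included 0. KIF18A, which dampens chromosome movements, had 0.16 ± 0.26, KIF18B -0.07 ± 0.23 and KIF20B 0.11 ± 0.16 in the authors' deposited table. The 11 mitotic kinesins, with KIF4A, KIF14 and KIF23 as the remaining members, had a median of 0.08 with 7 above 0.

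Kinesins that carry cargo or act outside the spindle had a similar median of 0.08 over 6 genes. KIF5B, the heavy chain of conventional kinesin, had -0.07 ± 0.13 (interval -0.33 to 0.20) in the authors' deposited table. The extremes of the kinesin group were the closely related KIF21B with 0.39 ± 0.23 and KIF21A with -0.48 ± 0.46 in the authors' deposited table. KIF13B, KIF24 and KIFC2 had implied standard errors above 0.3 and intervals that included 0.

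Subunits of one complex, or close relatives, were also set against each other. Of 19 pairs listed, 16 had both genes in the table, and the 95% interval of the difference included 0 in all 16. The widest gaps were those of the aurora kinases and of NDC80 and NUF2, and the smallest was that of SMC5 and SMC6. These intervals treat the errors of both genes as independent, and their width, from -0.61 to 0.15 for PDS5A minus PDS5B, leaves room for differences as large as the coefficients themselves.

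The other genes of mitosis, listed by role, had a lower median than the members, a difference that was not tested. Of 73 genes listed 58 were in the table; 0 passed at an adjusted p below 0.05 by the authors' deposited table, and 7 were higher and 0 lower at an unadjusted p below 0.05, against 8.35% and 1.95% of all genes. Their median was 0.07, which is 0.03 below that of all genes. MKI67, which coats mitotic chromosomes, had 0.24 ± 0.07 (adjusted p = 0.0913), and TOP2A, the topoisomerase that untangles sister DNA, had 0.15 ± 0.07 (adjusted p = 0.395) per the authors' deposited table. RAD21, the subunit that closes the cohesin ring, had 0.10 ± 0.10 (interval -0.11 to 0.30), the cohesin loader NIPBL 0.12 ± 0.14, and the releaser WAPL -0.03 ± 0.15 in the authors' deposited table. CDK1, the kinase that starts mitosis, had 0.02 ± 0.12 and its partner CCNB1 0.05 ± 0.17 in the authors' deposited table, and UBE2C, the ubiquitin-conjugating enzyme of the anaphase-promoting complex, had -0.28 ± 0.18 (adjusted p = 0.608).

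Shared reads and overlapping genes touch some of these values. In RefSeq, 25 of the 110 members have at least 1 pseudogene named after them and the spans of 31 overlap another protein-coding gene. Of the 11 members with an unadjusted p below 0.05, NCAPG has 2 such pseudogenes and an overlapping gene and CEP192 has 1 pseudogene; for the other 9 neither was found. Their part in the results was not tested.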

How the data were processed

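Per the submitters' processing notes, reads were handled with Bowtie2, SAMtools 1.11 and UMI-tools 1.1.1 on hg38, with roles, count filter, library scaling and model fitting not given in the sources used here. The deposited table holds, per the file headers, a coefficient taken as a natural log, its two-sided p-value, an adjusted p-value and a q-value, made by the authors. The adjusted p-value equals Benjamini-Hochberg over 6309 genes (largest difference 6.61e-14). The planned design assumed no other unit.

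Computed here with Python 3.11.15, SciPy 1.17.1 and pandas 2.3.3: implied standard errors, intervals, group medians, recentred p-values, pair differences and promoter matches. Members were matched to RefSeq, 109 by symbol and 1 by an older symbol. In 20 simulated runs of 6308 genes (the comparison of decitabine with DMSO), 66.4% of 200 genes changed by 1 were recovered and 5.11% of calls were false. The simulated coefficients carried a common shift and were centred on their median before the adjustment. Both shares describe that centred test, not the deposited adjusted p-value. The simulated errors were drawn with the same implied standard errors that the test used. The false share therefore checks the computation only and cannot show whether those errors fit the data. A change of 1 was larger than the coefficient of every member but CEP120.

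Named genes were, per group, those at an unadjusted p below 0.05, the 4 most precise, the lowest and highest, the pairs, and a list of regulators; other names were added after values were seen. Members and lists were chosen with earlier results of these data known. Alternatives were other thresholds and adjustments, 2 placements of zero, removal of the 25% least precise genes, weighted means, groups by role and wider intervals. One gene counted among the members is not reported here by name.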

Additional observations from a re-analysis of the deposited data

How the results depend on the processing

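The count of 0 members past the adjustment became 1, SMC1A in each case, at an adjusted p below 0.1, with the deposited q-value, and without the 25% least precise genes, where fewer genes are tested and SMC1A reached 0.0463. It remained 0 at 0.01, with Benjamini-Yekutieli and after either centring, where SMC1A had 0.386 and 0.366. After centring on the median or on the precision-weighted mean, 2 members were lower without adjustment instead of 0, the kinesin median became -0.0153 and -0.00994, and that of the other mitotic genes became -0.0260 and -0.0206, all of which comes from moving zero by 0.09. At an unadjusted p below 0.05, 7 other mitotic genes were higher and 0 lower; after centring on the median there were 2, of which MKI67 was higher and UBE2C lower. The remaining group medians kept their sign under all alternatives run, and no pair interval excluded 0 with standard errors multiplied by 1.46. That factor is the standard deviation of z, taken relative to the median of all genes, among the 20% most precise genes. Intervals from the implied standard errors alone may be too narrow. The factor cannot show this, because real changes would also spread z, and it was not tested. No paired analysis was possible because the table has no value per library, and leaving out replicates was not run for the same reason. Of the named genes' adjusted p-values, 175 of the alternatives stayed on the same side of 0.05 and that of SMC1A changed. The median coefficient needed to pass was 0.828 over the members and 0.898 over all genes. Why no member passed was not tested.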

Other observations

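The mRNAs of ribosomal proteins start with a C followed by a run of pyrimidines, and such a start was looked for in the members as a C followed by at least 4 further pyrimidines at the RefSeq gene start. It was found in 3 of 97 members (3.09%), namely NCAPD2, CEP95 and HAUS4, against 5.83% of 5145 genes in the table and 27 of 45 ribosomal protein genes (60%). Their coefficients in the authors' deposited table were -0.03 for NCAPD2, 0.37 for CEP95 and -0.38 for HAUS4. RefSeq starts need not be the starts used in HL-60 cells.

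The members were also divided by precision. The 55 with the smaller implied standard errors had a median coefficient of 0.11, with 45 above 0 (81.8%). The 2718 genes with an implied standard error up to the members' median of 0.233 had a median coefficient of 0.10, with 70.9% above 0. That set reaches down to 0.0227, below the 0.0915 of the most precise member. The 55 less precise members had a median of 0.21, with 37 above 0 (67.3%), against 0.09 and 60.6% for the other 3591 genes, whose standard errors reach beyond those of the members. These values are a description and were not tested.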
